A study of Rattus norvegicus with 18 samples.

Results

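The hippocampal formation of rats killed 6 h into recovery from paradoxical sleep deprivation was compared with that of rats left in their home cage. All columns titled as hippocampal formation of recovering or control rats were used: 6 of the 18 arrays and 4 of the 12 RNA pools. Male Sprague Dawley rats, housed singly and carrying electrodes for the electroencephalogram and the electromyogram, were kept from paradoxical sleep by the flowerpot method, in which they stay on platforms, and no platform control was analysed here. The recovery group had 72 h of deprivation and 6 h of recovery by its sample labels, while the protocol text gives 78 h of deprivation followed by 6 h. The control group stayed in the home cage. A further group, deprived for 78 h without recovery, and the neocortex of the same rats were used only as points of reference. Every group was killed at 1 clock time in the light phase, and total RNA of the right hippocampal formation was pooled from 6 rats. Each group therefore had 2 pools from separate sets of rats, called set 1 and set 2, and 12 rats in all. For set 1 the RNA was pooled and hybridised a second time, and those arrays were averaged as 1 pool.

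Paradoxical sleep, also called rapid eye movement sleep, is a state with an activated electroencephalogram and a theta rhythm in the hippocampus, and it rebounds when sleep is allowed after deprivation. The hippocampal formation holds granule and pyramidal neurons whose synapses serve memory. When such neurons fire, calcium and cyclic AMP signalling switch on immediate early genes, which encode transcription factors such as Fos, Egr1 and the Nr4a receptors, and effectors such as Arc, Bdnf and Ptgs2 that act at synapses.

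The array measured 31099 probe sets, short stretches of transcripts, as MAS5 signals on a linear scale. Of these, 18625 were bright enough to be tested and stood for 10294 genes with a single symbol. Signals had the same 2% trimmed mean of 100.03 on each of the 6 arrays, and RNA integrity, read from the ratio of 3' to 5' probe sets for beta-actin, differed little between the states, at 2.42 and 2.52 in control and 2.33 and 2.39 after recovery (set 1, then set 2). The tissue label was checked against markers. In the control pools, 2 of 4 measured markers of granule cells, 8 of 9 of CA1 and 9 of 12 of CA3 and CA2 pyramidal neurons were higher in both hippocampal than in both neocortical pools, and Prox1, the granule cell factor, had signals of 330 and 257 in the hippocampal formation against 78.3 and 69.5 in the neocortex. Conversely, 12 of 13 striatal and 10 of 17 neocortical markers were higher in both neocortical pools. The sets of rats differed more than the states: the first principal component of the 6 hippocampal pools, with 61.7% of the variance, separated set 1 from set 2. On the second component, with 12.1%, the recovery pool of set 1 stood apart at 23.01, with the other pools between -12.17 and 3.887. The fit therefore compared recovery with control within each set.

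No transcript passed the test in the hippocampal formation after recovery. With limma and Benjamini-Hochberg adjustment at 0.05, 0 of 18625 probe sets were called higher and 0 lower (0% of those tested each way), and the smallest adjusted p was 0.0564. At an unadjusted p under 0.05 there were 1363 probe sets (7.32%), 703 above control (3.77%) and 660 below (3.54%), where 931.2 would be expected of a test with no change anywhere. A fit without the set as a block also called 0 and left 282 at an unadjusted p under 0.05. A fit restricted to the 4 compared pools called 7, which are named below where they have a gene symbol. That fit had 925 probe sets at an unadjusted p under 0.05, near the 931.2 expected, and a fit of the hippocampal pools alone had 1093. Red cell, choroid plexus, meningeal, striatal, microglial, neocortical and endothelial markers also lay below control as lists (medians -1.19, -0.59, -0.17, -0.14, -0.12, -0.098 and -0.066), and their part in the results was not tested. P-values measure the spread between pools of 6 rats that is left once the set difference is taken out within each structure. For each probe set it has 4 residual degrees of freedom, and fewer in the fit of the 4 compared pools alone, so passes there are less secure. Hippocampal and neocortical pools of the same rats share it and were fitted as independent. With 2 pools a group an exact permutation test could not reach 0.05, so none is given.

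The direction of change in one set of rats said little about the other for most transcripts. Across the kept probe sets, the correlation between the set 1 and set 2 changes was 0.011, and 0.067 among the 7392 probe sets with a mean log2 signal of at least 7. Probe sets are not independent, and each set's change rests on 1 pool a side. Array noise was of similar size: the 2 technical arrays of set 1 differed with a standard deviation of 0.374 in control and 0.335 after recovery (log2). The set 1 and set 2 changes had 0.296 and 0.244. Among the 7392 brighter probe sets these were 0.229 and 0.169, against 0.188 and 0.159. The part of array noise in the low correlation was not tested. Over the 10294 genes, taken at 1 probe set each, 47.6% were above control, 22.5% were above it in both sets and 26.4% below it in both. The recovery pools did not overlap the control pools in 905 genes above control (8.79%) and 1151 below (11.2%). Counted over all kept probe sets the lean was the other way, with 51.9% above control, 25.4% above in both sets, 23.6% below in both, and pools apart in 10% above and 9.87% below. A change of at least 1.5-fold in the same direction in both sets was seen in 10 genes above control (0.0971%) and 14 below (0.136%), and in 0.188% and 0.129% of all kept probe sets. The 30 genes named first were the 15 on each side with the smallest p among those on the same side in both sets with pools apart, so that agreement is a property of the choice. Their lower group mean had to reach a signal of 32.

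**Figure D1:**
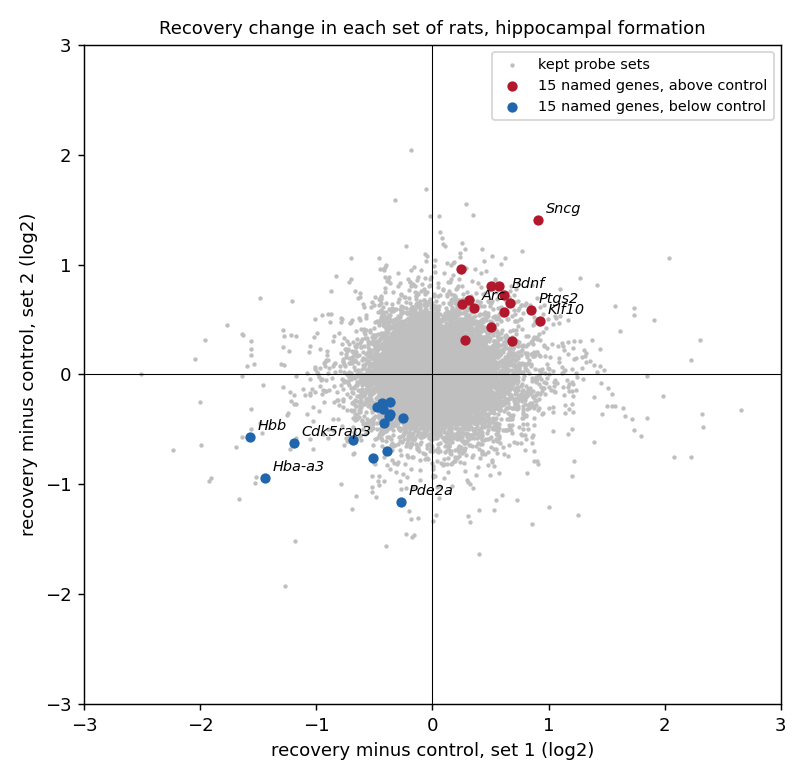
Recovery minus control on the log2 scale for each kept probe set of the hippocampal formation, set 1 on the horizontal and set 2 on the vertical axis (2 probe sets lie outside the axes). Grey points form a round cloud around 0, and the 15 named genes above control (red) and 15 below (blue) were chosen for lying in the upper right and lower left.

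Neuronal activity genes were the clearest group above control. Of 21 activity-regulated transcription genes on the array, 15 were bright enough to be tested, by their mean over all 12 pools. Of these, 14 were above control and 1 below, 12 were above in both sets, and in 8 both recovery pools exceeded both control pools against 8.79% of all genes. The median log2 change was 0.32 over the list, 0.36 in set 1 and 0.16 in set 2, beside -0.0071 over all genes. Of 22 activity-regulated effectors tested, from 26 on the array, 19 were above control, 18 in both sets and 12 with both recovery pools above both control pools, with medians of 0.29 over both sets, 0.29 in set 1 and 0.28 in set 2. None of these 37 genes passed the test, and 7 of the 15 and 12 of the 22 had an unadjusted p under 0.05 in the upward direction, where 2.78% of all genes did. The 78 h deprived pools, without recovery, had list medians of -0.0060 and -0.013 against the same controls. In the neocortex of the recovering rats the medians were 0.16 and 0.12.

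**Figure D2:**
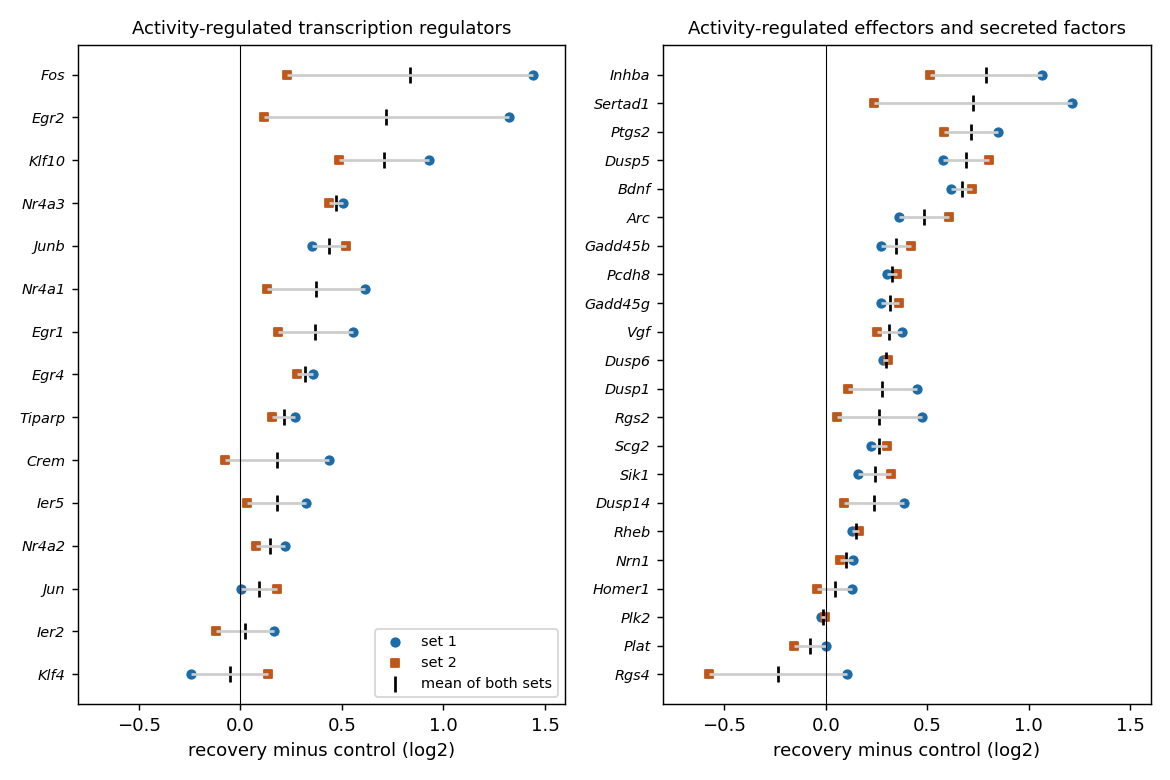
Recovery minus control (log2) of the 15 activity-regulated transcription genes and the 22 effectors in the hippocampal formation, with a circle for set 1, a square for set 2 and a bar for their mean. Most genes lie right of 0 in both sets, and the changes of Fos and Egr2 are far larger in set 1 than in set 2.

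Ptgs2, which encodes cyclooxygenase-2, the inducible enzyme of prostaglandin synthesis and an activity-regulated gene in forebrain neurons, had signals of 203 and 244 in the control pools of set 1 and set 2 and 365 and 365 after recovery. Both recovery pools were above both control pools, while the deprived pools, at 186 and 249, lay near control. The difference was 1.64-fold (log2 change 0.72, SE 0.114, n = 2 pools each, limma adjusted p = 0.146). Bdnf, the brain-derived neurotrophic factor, had signals of 167 and 121 in control and 257 and 200 after recovery, 1.59-fold higher (log2 change 0.67, SE 0.114, adjusted p = 0.163). The 4 pools did not overlap, and the deprived pools were at 161 and 118. A second, dim Bdnf probe set had a log2 change of 0.50. Arc, which acts at synapses to remove AMPA receptors, had signals of 113 and 97.2 in control, 100 and 102 in deprived and 145 and 148 in recovery pools. Its log2 change against control was 0.48 (SE 0.102, adjusted p = 0.304), again without overlap.

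Among the transcription factors, Nr4a3, an orphan nuclear receptor, had control signals of 374 and 405 and recovery signals of 530 and 547 (log2 change 0.47, SE 0.0891, adjusted p = 0.235). Klf10, a Krüppel-like repressor that responds to TGF-beta and to activity, had 145 and 139 in control and 277 and 195 after recovery (log2 change 0.71, SE 0.175, adjusted p = 0.381). Neither gene's pools overlapped, and Klf10 was further above control in set 1 than in set 2. Egr1, a zinc finger factor of long-term plasticity, had 606 and 743 in control and 889 and 844 after recovery. Fos, a subunit of the AP-1 factor, had 35.7 and 78.0 in control and 97.1 and 91.3 after recovery. The Fos change was 1.44 in set 1 and 0.23 in set 2, so its size rests on the low control pool of set 1. With 1 pool left out at a time, the log2 change ran from 0.32 to 1.35 for Fos and from 0.54 to 0.89 for Ptgs2.

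Phosphatases that switch off MAP kinase signalling were also among the genes above control. Dusp6 had signals of 380 and 315 in control and 463 and 391 after recovery (log2 change 0.30, SE 0.0675, adjusted p = 0.325), and Dusp5 had 48.9 and 28.1 against 72.9 and 49.0 (log2 change 0.69, SE 0.169, adjusted p = 0.374). Both were already above control in the deprived pools, by 0.16 and 0.45 on the log2 scale. Dusp26, another phosphatase of the family, lay on the other side, with 175 and 161 in control and 126 and 131 after recovery (log2 change -0.39, SE 0.0917, adjusted p = 0.338). Homer1, which encodes a postsynaptic scaffold with long and short forms, gave a different answer by probe set, and is named here after its values were seen. Its brightest probe set was level, with 507 and 492 in control and 556 and 477 after recovery. A dimmer one had 125 and 116 in control and 336 and 204 after recovery (log2 change 1.12, SE 0.285, adjusted p = 0.397) and passed in the fit of the 4 compared pools alone (adjusted p = 0.0255). The other 3 probe sets had log2 changes of 1.31, 0.18 and 0.17.

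**Figure D3:**
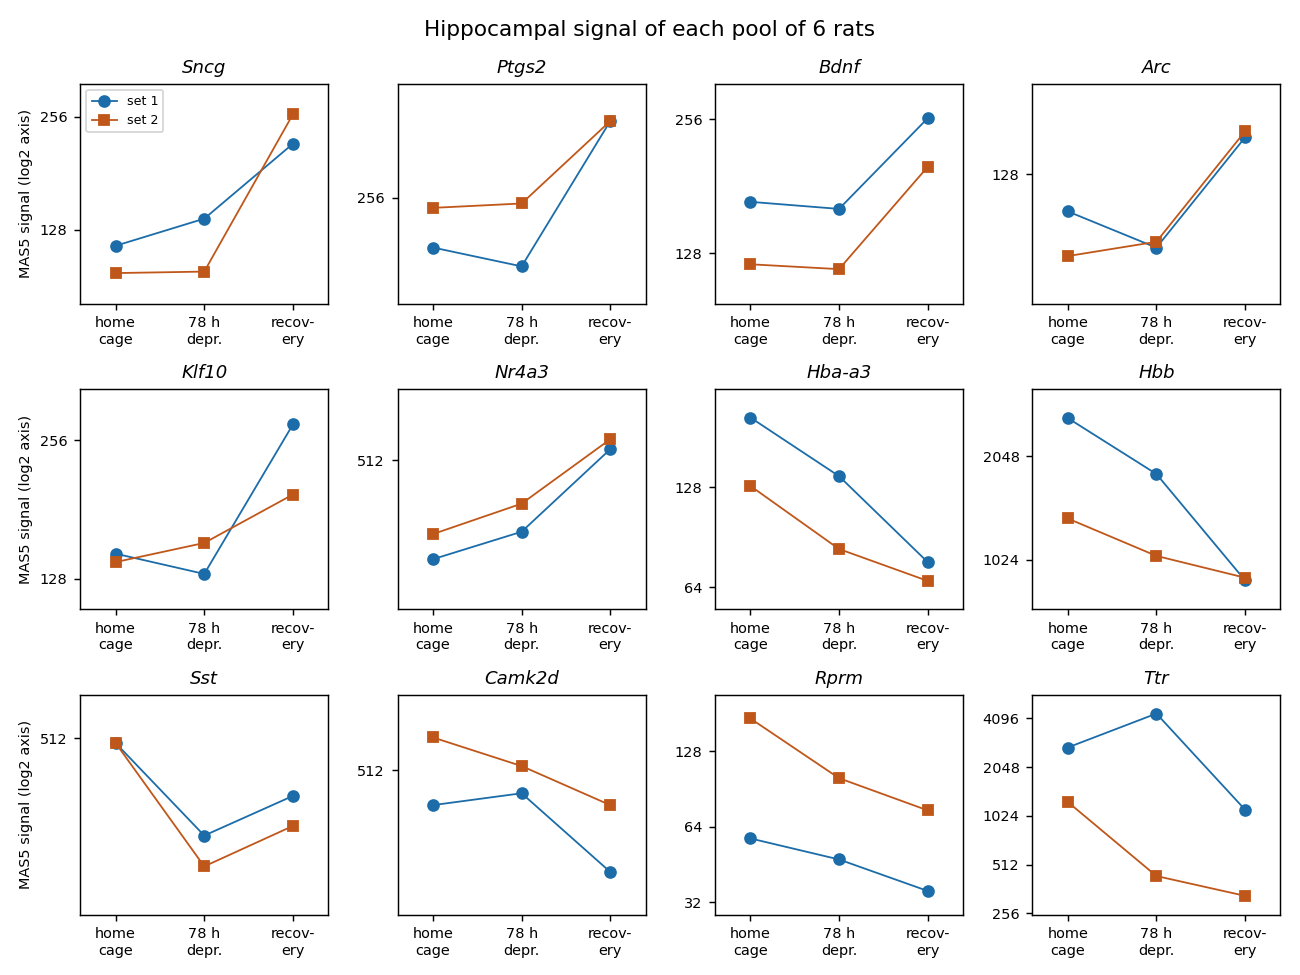
MAS5 signal (log2 axis, scaled to each gene) of 12 genes in every hippocampal pool, in the home cage, after 78 h of deprivation and after recovery, with a circle for set 1 and a square for set 2, each a pool of 6 rats. Sncg, Ptgs2, Bdnf, Arc, Klf10 and Nr4a3 are highest after recovery in both sets, and Hba-a3, Hbb, Camk2d and Rprm are lowest there in both sets.

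The largest change among the 15 named genes above control was that of Sncg, gamma-synuclein, a small protein of axons and presynaptic terminals. Its signals were 116 and 98.1 in control, 137 and 99.0 in deprived and 217 and 260 in recovery pools. Both recovery pools stood above all the others, at 2.23-fold over control (log2 change 1.16, SE 0.173, 2 pools a group, limma adjusted p = 0.100). In the 4-pool fit Sncg passed with an adjusted p of 0.0192. The neocortex of the same rats had a log2 change of 0.93, and the difference between the structures was 0.23 (limma adjusted p = 0.96). In the presynaptic release list, which holds Sncg, 21 of 32 genes were below control, with a median of -0.063, among them Vamp2, a vesicle fusion protein (850 and 976 in control, 557 and 865 after recovery), and Slc17a7, the vesicular glutamate transporter of pyramidal cells (1260 and 791 against 925 and 692, with a second kept probe set at -0.0049). The Vamp2 log2 change ran from -0.61 to -0.17 when 1 pool was left out at a time.

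The other named genes above control came from several families. Tuba8, an alpha-tubulin, had signals of 226 and 163 in control and 282 and 260 after recovery (log2 change 0.50, SE 0.110, adjusted p = 0.325). Nrp2, a semaphorin receptor of the hippocampus, had 233 and 193 against 278 and 302 (log2 change 0.45, SE 0.110, adjusted p = 0.374). Zfp536, a zinc finger repressor, had 212 and 270 against 341 and 333 (log2 change 0.49, SE 0.118, adjusted p = 0.345, and 0.30 with the second technical arrays of set 1 left out). The pools of all 3 genes were apart. Cnbd2, C10h17orf75, Ddx3x-ps1 and Tbc1d8b completed the 15, with log2 changes of 0.65, 0.66, 0.60 and 0.59. A second, dim Cnbd2 probe set was at -0.14. Against the same controls the deprived pools had log2 changes of 0.28 for Tuba8, 0.39 for Ddx3x-ps1, 0.24 for C10h17orf75 and 0.24 for Tbc1d8b. Cnbd2, Nrp2 and Zfp536 had 0.11, 0.095 and 0.035 there. Ddx3x-ps1 is annotated as a pseudogene copy and may share signal with its parent gene. Its log2 change ran from 0.25 to 0.96 when 1 pool was left out at a time.

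Red blood cell transcripts were the list farthest below control. All 3 members tested, of 6 on the array, were lower in both recovery pools than in both control pools, where 11.2% of all genes were, with a median log2 change of -1.19. Hbb, a beta-globin chain, had signals of 2650 and 1350 in control, 1820 and 1050 in deprived and 891 and 907 in recovery pools (log2 change -1.07, SE 0.201, adjusted p = 0.235). Hba-a3, an alpha-globin chain, had 207 and 129 in control and 76.2 and 66.9 after recovery, 2.29-fold lower (log2 change -1.19, SE 0.174, adjusted p = 0.100). Alas2, the first enzyme of haem synthesis in red cell precursors, had 66.7 and 33.3 in control and 17.5 and 17.0 after recovery (log2 change -1.45, SE 0.311, adjusted p = 0.312). For each gene the control pool of set 1 was the highest, and the recovery pools of the 2 sets lay close together. The Alas2 recovery pools were under the signal of 19.7 asked of a probe set's mean over all 12 pools, so the size of its change is uncertain. Hba-a3 passed in the 4-pool fit (limma adjusted p = 0.0193). With 1 pool left out at a time, log2 changes ran from -1.45 to -0.93 for Hba-a3 and from -1.53 to -0.62 for Hbb. In the neocortex Hbb and Hba-a3 had log2 changes of -1.08 and -0.73. Globin genes have near-identical copies that share probe sequence, so the split between them is uncertain. In bulk RNA, fewer cells of a type and less RNA per cell cannot be told apart, here and for each cell type below.

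The 250 bases before the start sites of these red cell genes are shown because the 3 transcripts lay apart from control together, beside those of Ptgs2 and Bdnf, chosen after their values were seen as the activity genes with the smallest p. The sequences are from RefSeq, build GRCr8, 5' to 3' on the gene's strand: Ptgs2 at chr13:64713813-64714062 (plus), the only one of 6 Bdnf start sites whose window held TGACG at chr3:116637608-116637857 (plus), Hba-a3 at chr10:15816944-15817193 (minus), Hbb at chr1:167663722-167663971 (minus) and Alas2 at chrX:22895200-22895449 (plus). Capitals mark the motifs found.
Ptgs2: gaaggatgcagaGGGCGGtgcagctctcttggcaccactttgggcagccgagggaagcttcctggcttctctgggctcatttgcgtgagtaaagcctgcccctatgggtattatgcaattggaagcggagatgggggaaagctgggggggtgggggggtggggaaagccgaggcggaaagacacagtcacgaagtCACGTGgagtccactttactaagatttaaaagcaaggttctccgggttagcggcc
Bdnf: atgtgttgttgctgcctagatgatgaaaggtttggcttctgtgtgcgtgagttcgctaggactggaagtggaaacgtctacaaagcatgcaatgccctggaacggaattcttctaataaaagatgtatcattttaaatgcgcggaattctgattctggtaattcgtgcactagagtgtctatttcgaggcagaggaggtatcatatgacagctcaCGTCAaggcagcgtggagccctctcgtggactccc
Hba-a3: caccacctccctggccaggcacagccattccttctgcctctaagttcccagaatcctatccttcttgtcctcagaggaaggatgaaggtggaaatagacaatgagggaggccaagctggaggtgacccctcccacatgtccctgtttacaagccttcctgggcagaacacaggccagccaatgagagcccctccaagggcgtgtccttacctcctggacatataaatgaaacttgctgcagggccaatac
Hbb: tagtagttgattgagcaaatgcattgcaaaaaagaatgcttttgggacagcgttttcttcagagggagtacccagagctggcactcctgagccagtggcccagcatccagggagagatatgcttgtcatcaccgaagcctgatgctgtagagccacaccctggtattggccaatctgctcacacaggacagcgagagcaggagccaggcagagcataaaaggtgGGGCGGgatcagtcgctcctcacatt
Alas2: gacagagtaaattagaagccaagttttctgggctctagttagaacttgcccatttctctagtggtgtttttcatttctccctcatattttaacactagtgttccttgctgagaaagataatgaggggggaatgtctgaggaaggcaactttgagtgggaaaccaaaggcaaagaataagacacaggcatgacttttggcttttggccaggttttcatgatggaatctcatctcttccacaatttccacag
The motifs searched on both strands were TGACGTCA (the full cyclic AMP response element), its shorter form TGACG, which the full form contains, CACGTG (the E-box of clock and other basic helix-loop-helix factors), GGGCGG (the GC box) and 1 form each of the serum response element and the glucocorticoid response element. The Bdnf window held TGACG on the other strand 35 bases before the start, Ptgs2 held CACGTG at 55 and GGGCGG at 238 bases, Hbb held GGGCGG at 26 bases, and Hba-a3 and Alas2 held none of the 6.

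TGACG was common in the windows of the activity genes. It lay within 250 bases before a start of 8 of the 11 activity-regulated transcription genes and 11 of the 19 effectors with a RefSeq window, 72.7% and 57.9%, against 20% of 27457 genes. TGACGTCA was found in 2 and 4 of them, against 1.78% of all genes. CACGTG was in 0 of the 11 and 6 of the 19 (31.6%), against 6.18%. GGGCGG, the GC box, was also more frequent, in 5 of the 11 (45.5%) and 12 of the 19 (63.2%), against 33.5%. All start sites of a gene were searched, the lists were written from known activity genes, and a match is a string of letters, not a bound site.

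Below control, the named genes included signalling enzymes of neurons. Camk2d, the delta subunit of calcium/calmodulin-dependent kinase II, had signals of 447 and 581 in control and 345 and 447 after recovery (log2 change -0.38, SE 0.0749, adjusted p = 0.272). The difference was nearly equal in both sets, at -0.37 and -0.38. Pde2a, a phosphodiesterase of cyclic nucleotides, had 891 and 1850 in control and 739 and 829 after recovery, so its log2 change of -0.71 (SE 0.164, adjusted p = 0.325) rests mainly on the high control pool of set 2. The Pde2a log2 change ran from -1.15 to -0.28 when 1 pool was left out at a time. In the deprived pools Pde2a already had a log2 change of -0.52 against control. Gucy1a1, a subunit of the nitric oxide receptor guanylyl cyclase, had 183 and 189 in control and 142 and 147 after recovery (log2 change -0.36, SE 0.0732, adjusted p = 0.278). Its 2 pools within each group lay closer together than the groups did.

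Cdk5rap3, which binds an activator of the kinase Cdk5, had signals of 63.6 and 75.4 in control and 27.9 and 48.9 after recovery (log2 change -0.91, SE 0.177, adjusted p = 0.262). The 27.9 averages technical arrays that disagreed, at 11.5 and 67.5, and the second lies above both control arrays of set 1. With the first technical arrays alone the log2 change was -1.57, and with the second alone -0.25. The transcription factors Tshz3 and Klf5 had log2 changes of -0.43 and -0.64, the ubiquitin ligase subunit Fbxw8 -0.54, Scaf1, a splicing-related protein, -0.64, and Faim2, an inhibitor of Fas-driven cell death, -0.37. C19h1orf198 and Ttc9b had -0.34 and -0.31. Each of these 7 had an adjusted p between 0.312 and 0.338, both recovery pools below both control pools, and the same direction in both sets. The deprived pools were already below the same controls, by log2 changes of -0.46 for Fbxw8, -0.34 for Faim2, -0.32 for Scaf1 and -0.29 for Klf5. Those of C19h1orf198, Ttc9b and Tshz3 had -0.21, -0.15 and -0.076. With 1 technical array of set 1 at a time, Scaf1 ran from -0.97 to -0.30 and Tshz3 from -0.59 to -0.27. Further kept probe sets were nearer control for Klf5 (-0.036 and -0.38), Fbxw8 (-0.16) and C19h1orf198 (-0.070).

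Neuropeptide genes lay on both sides: 13 of 23 exceeded control, and the median was 0.0415. Sst, somatostatin, a marker of dendrite-targeting interneurons, had signals of 504 and 504 in control, 371 and 335 in deprived and 423 and 383 in recovery pools (log2 change -0.32, SE 0.0721, adjusted p = 0.325). Recovery pools lay between deprived and control pools in both sets. Pdyn, the dynorphin precursor of granule cells, had 252 and 205 in control and 277 and 291 after recovery (log2 change 0.32, adjusted p = 0.49), and a second kept probe set had -0.017. Scg2, secretogranin II, had 1270 and 1100 against 1490 and 1350 (log2 change 0.26, adjusted p = 0.49). Cbln1, a synaptic organiser, had 39.1 and 69.6 against 24.4 and 42.5, with overlapping pools.

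Glucocorticoid-responsive genes lay mostly above control. Of 22 measured, 18 were above control, 15 in both sets and 6 with pools apart, against 47.6%, 22.5% and 8.79% of all genes, and 0 passed the test. The median was 0.14, beside 0.21 for the deprived pools against the same controls. Gpd1, a glycerol phosphate dehydrogenase induced by corticosteroids, had signals of 218 and 254 in control, 375 and 414 in deprived and 294 and 290 in recovery pools. Sgk1, a kinase induced by the same hormones, had 490 and 512, then 886 and 690, then 647 and 622. For both genes the recovery pools lay between the other groups in each set. Mt2A, a metallothionein, had 353 and 230 in control, 462 and 272 in deprived and 467 and 295 in recovery pools. Klf9, a Krüppel-like factor, had 595 and 757 in control, 585 and 862 in deprived and 724 and 871 after recovery. The log2 changes against control were 0.31, 0.34, 0.38 and 0.24 for Gpd1, Sgk1, Mt2A and Klf9, with adjusted p from 0.338 to 0.532.

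Circadian clock genes also lay on both sides, 9 of 20 being above control, and had a median of -0.057 (0.0061 in set 1 and -0.092 in set 2). In both sets 4 were above control and 8 below. The 4 members named, chosen for the smallest p, were below control in both sets: Nr1d1, the repressor REV-ERB alpha, with 117 and 86.3 in control and 84.1 and 61.2 after recovery (log2 change -0.49, SE 0.136, adjusted p = 0.49), and its relative Nr1d2 (423 and 456 against 380 and 383). Dbp, an output factor, had 248 and 296 against 174 and 268, and Hlf, of the same family, 333 and 308 against 293 and 260. The pools of Nr1d1, Nr1d2 and Hlf did not overlap, and those of Dbp did. Against the same controls the deprived pools had log2 changes of -0.39 for Nr1d1, -0.12 for Nr1d2, -0.24 for Dbp and 0.093 for Hlf.

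Lipid synthesis genes lay slightly below control as lists. In cholesterol synthesis 18 of 20 genes were below control, 10 in both sets, with a median of -0.087 (-0.13 in set 1 and -0.065 in set 2). Dhcr7, its last enzyme, had signals of 178 and 166 in control and 156 and 126 after recovery, and Sqle, squalene epoxidase, had 269 and 234 against 213 and 210. The Sqle log2 change was -0.39 with the first technical arrays of set 1 alone and -0.11 with the second. In fatty acid synthesis 12 of 13 were below control, with a median of -0.12, while Elovl6, an elongase, had 153 and 189 against 169 and 225. No member of either list passed the test, and 52.4% of all genes were below control. The deprived pools had medians of -0.12 and -0.058 for these lists.

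Stress and chaperone lists had small medians. Cytosolic heat shock genes had 12 of 17 members above control and a median of 0.084, with Cryab, a small heat shock protein, at 231 and 243 in control and 297 and 286 after recovery, and Hspa4 at 361 and 382 against 296 and 289. Chaperones of the endoplasmic reticulum had a median of 0.017, with Hspa5 at 1050 and 1030 against 1300 and 1160. The deprived pools of Hspa5 were at 1210 and 1380. Antioxidant genes had a median of -0.039 and interferon and antigen presentation genes one of -0.12, with Irf7 at 52.1 and 52.5 in control and 33.9 and 43.7 after recovery. The Irf7 log2 change was -0.68 with the first technical arrays of set 1 alone and -0.20 with the second. Inflammation genes had 7 of 10 below control and a median of -0.094.

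Among ion channels and receptors of neurons, list medians were small. Potassium channel genes had 31 of 46 above control, 11 with pools apart, and a median of 0.071, where 47.6% of all genes were above control and 8.79% had pools apart above it. Examples were Kcna1, a subunit of axonal channels, at 173 and 278 in control and 224 and 320 after recovery, and Kcnk4, a background potassium channel, at 46.9 and 42.9 against 31.5 and 31.3. The Kcna1 log2 change of 0.29 was 0.16 with the first technical arrays of set 1 alone and 0.42 with the second. The medians were 0.033 for ionotropic glutamate receptors, -0.0066 for GABA signalling, 0.033 for calcium, sodium and HCN channels, -0.050 for neuromodulator receptors and -0.073 for postsynaptic plasticity genes. Among the last, Dlgap3, a scaffold of the postsynaptic density, had 131 and 124 in control and 106 and 104 after recovery. The 131 averages technical arrays at 102 and 169.1. Its log2 change of -0.29 was -0.12 with the first technical arrays of set 1 alone and -0.45 with the second. The adenosine and prostaglandin list had 9 of 12 above control, led by Ptgs2 and by Nt5e, which makes adenosine outside the cell (35.3 and 42.5 against 52.0 and 55.6). Ribosomal protein genes had 29 of 39 below control with a median of only -0.043, and the medians were -0.016 for the respiratory chain, -0.0059 for translation factors and -0.00036 for proteasome and ubiquitin genes.

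**Figure D4:**
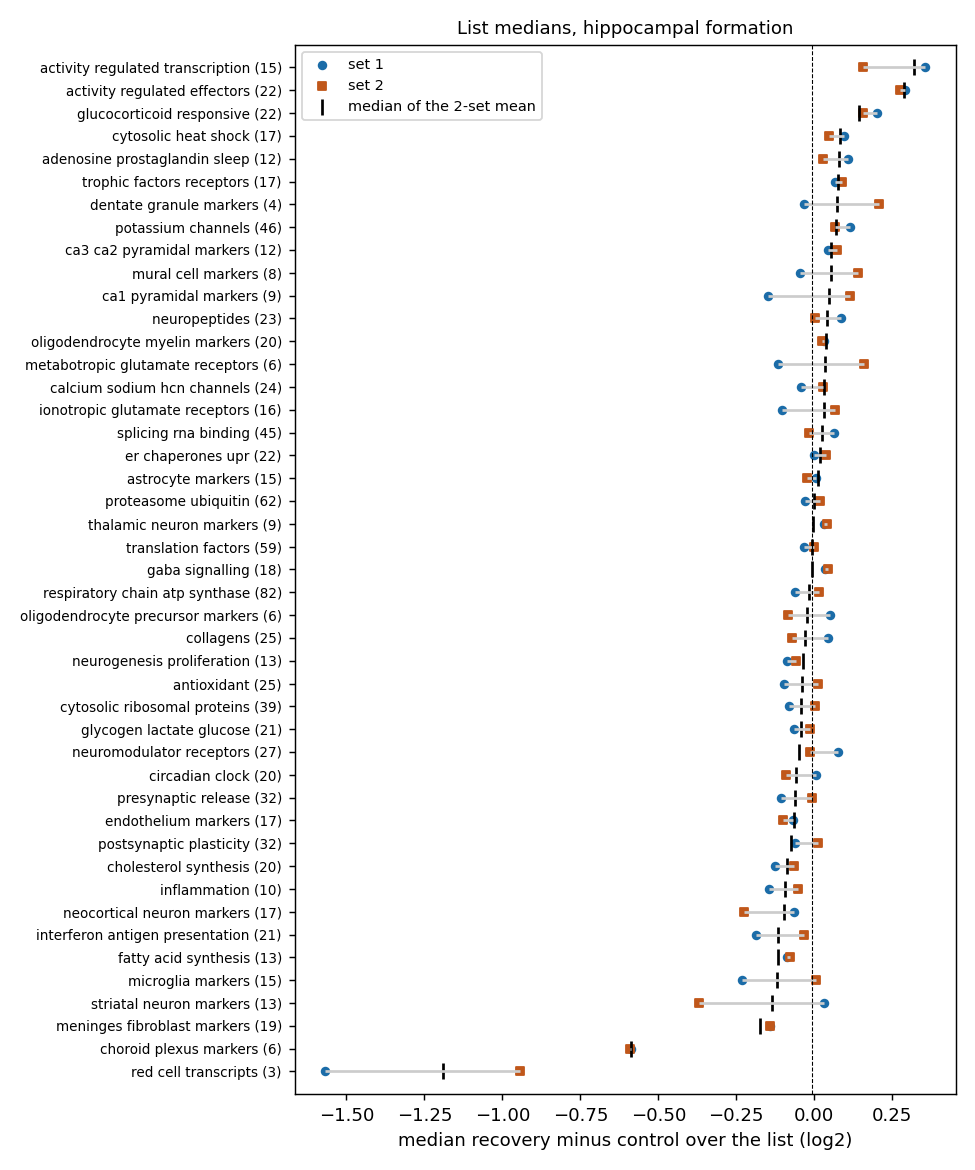
Median recovery minus control (log2) of each gene list with at least 3 measured members, whose number is in brackets, for set 1 (circle) and set 2 (square). The bar is the median over genes of the change averaged over both sets, and it can lie outside the medians of the sets. A dashed line marks the median of all genes. Red cell (-1.19) and choroid plexus (-0.59) transcripts lie far left, the activity lists (0.32 and 0.29) lie right, and the bars of all other lists shown lie within 0.2 of 0, though single sets reach further (striatal markers -0.37 in set 2).

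Some markers of tissue around the hippocampal formation were lower in the recovery pools. Of 17 neocortical neuron markers, 9 were below control, 8 of them in both sets, and 8 were above, 5 of them in both sets. Pools were apart in 2 above and 2 below (all genes 8.79% and 11.2%). Of those below, 5 had an unadjusted p under 0.05 (all genes 3.99%), and 0 of those above did. The 4 named here had the smallest p. Only 10 of the 17 were higher in both neocortical than in both hippocampal control pools. Rprm, a marker of deep cortical layers and the subiculum, had signals of 57.5 and 173 in control and 35.5 and 74.4 after recovery. It had the smallest adjusted p of any named gene (log2 change -0.96, SE 0.123, adjusted p = 0.0564), but its pools overlap, with set 2 higher in each state. The Rprm log2 change ran from -1.22 to -0.70 when 1 pool was left out at a time. Foxp2, a layer 6 marker, had 12.2 and 33.6 in control and 5.41 and 22.5 after recovery, against 113 and 116 in the neocortical control pools. Cux2, an upper layer marker, had 43.7 and 60.7 against 32.3 and 38.7, but its second kept probe set lay above control (log2 change 0.28). The first Cux2 probe set had a log2 change of -0.27 with the first technical arrays of set 1 alone and -0.82 with the second. Mef2c, abundant in the neocortex, had 631 and 967 against 551 and 669. A second Mef2c probe set had a log2 change of -0.85 and passed in the 4-pool fit (adjusted p = 0.0192). The mean log2 signal of the list was 6.74 and 7.21 in control and 6.64 and 7.02 after recovery. Striatal markers had 9 of 13 below control (median 0.033 in set 1 and -0.37 in set 2), with Drd2 at 16.8 and 24.4 against 7.03 and 18.9. The 7.03 averages technical arrays at 2.3 and 21.5, and the log2 change of -0.81 was -1.49 with the first technical arrays alone and -0.13 with the second. For Foxp2 these values were -0.39 and -1.37. Both genes were kept by a mean over all 12 pools, which includes the brighter neocortex. Their mean hippocampal log2 signals were 4.34 each in control, and 3.46 (Foxp2) and 3.53 (Drd2) after recovery. The cut was at 4.3, so these changes, including that of Foxp2 among the 5 above, have little precision. 

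Markers of the hippocampal fields themselves were close to control when both sets were averaged. Medians were 0.072 over 4 granule cell genes, 0.048 over 9 CA1 genes and 0.055 over 12 CA3 and CA2 genes. In both sets 1, 2 and 5 members were above control, and 0, 2 and 1 below. The set 1 and set 2 medians differed in sign for granule cell genes (-0.034 and 0.207) and CA1 genes (-0.147 and 0.115). For CA3 and CA2 genes they were 0.045 and 0.074. Ccn3, a CA1 marker, had 545 and 733 in control and 455 and 629 after recovery, and Amigo2, a CA2 marker, had 126 and 82.6 against 144 and 111.

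Non-neuronal markers differed by cell type. Choroid plexus markers, 6 of 15 bright enough to measure, had 5 below control and a median of -0.59, and Ttr, transthyretin, the main choroid plexus transcript, had signals of 2710 and 1250 in control, 4390 and 436 in deprived and 1120 and 329 in recovery pools. Its log2 change of -1.60 had an SE of 0.524 (limma adjusted p = 0.538). It passed in the 4-pool fit (limma adjusted p = 0.00138), which leaves out the deprived pools, and why the fits differ was not tested. In the neocortex of the same rats Ttr lay above control, with a log2 change of 1.455, and the choroid plexus list median there was 0.447. Meningeal and fibroblast markers had 13 of 19 below control, 9 with pools apart (all genes 11.2%), and a median of -0.17. Among these 13 were Col1a1 (43.5 and 35.0 against 10.9 and 22.4) and Ogn (66.1 and 110 against 46.1 and 58.1). The other 6 were above control, 1 with pools apart. One of them was Aldh1a2 (26.2 and 51.9 against 62 and 51.1, log2 change 0.61, pools overlapping). In this list 4 genes below and 2 above had an unadjusted limma p under 0.05. Endothelial markers had 10 of 17 below control, 7 with pools apart, and a median of -0.066. Slco1a4, a transporter of the blood-brain barrier, had 349 and 399 in control and 294 and 324 after recovery. Col1a1 had a log2 change of -2.25 without the recovery pool of set 2 and of -0.39 without that of set 1. Its 10.9 averages technical arrays at 5 and 23.9, and a second kept Col1a1 probe set was level (log2 change -0.014). The other Ogn probe sets had -0.084, -0.50 and 0.16.

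Glial marker lists differed among themselves. Microglial markers had 14 of 15 below control, but the median of -0.12 was -0.23 in set 1 and 0.0064 in set 2. Fcer1g, an immune receptor chain, had 280 and 183 in control and 220 and 155 after recovery, and Aif1, which encodes Iba1, had 97.7 and 111 against 63.2 and 100. Astrocyte markers had a median of 0.011, with Mlc1 at 682 and 744 against 599 and 640, and myelin markers one of 0.037. Genes of neurogenesis and proliferation had a median of -0.036, with Dcx, a marker of newborn neurons, at 52.3 and 62.5 in control and 49.2 and 49.7 after recovery.

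Recovery was set against continued deprivation to see where the recovery pools stood beside the state they followed. limma called 0 of 18625 probe sets (0%), with 1334 at an unadjusted p under 0.05 (7.16%) and a smallest adjusted p of 0.0862. This comparison shares its recovery pools with the one above. The recovery minus deprived log2 changes were 1.03 for Sncg, 0.76 for Ptgs2, 0.72 for Bdnf, 0.54 for Arc, 0.71 for Klf10 and 0.49 for Egr1, with adjusted p from 0.127 to 0.448. Sst stood 0.19 above deprived, and Gpd1 and Sgk1 stood -0.43 and -0.30 from it.

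A fit to hippocampal minus neocortical log2 signals, pool by pool, asked whether the recovery change differed between the structures. limma called 0 of 18625 probe sets (0%), 988 had an unadjusted p under 0.05 (5.30%), and the smallest adjusted p was 0.922. Sncg, Bdnf, Nr4a3 and Hbb had changes of the same sign in both structures, with differences of 0.23, 0.13, 0.094 and 0.0068. Klf10 had a log2 change of 0.71 in the hippocampal formation and 0.051 in the neocortex, and Arc 0.48 and 0.028. Tuba8, at 0.50 and -0.27, and Cdk5rap3, at -0.91 and 0.10, had opposite signs in the 2 structures, the Cdk5rap3 value resting on the discordant arrays given above. The differences of 0.66, 0.46, 0.77 and -1.01 for these 4 genes each had an adjusted p of 0.922, so none can be called particular to the hippocampal formation.

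**Figure D5:**
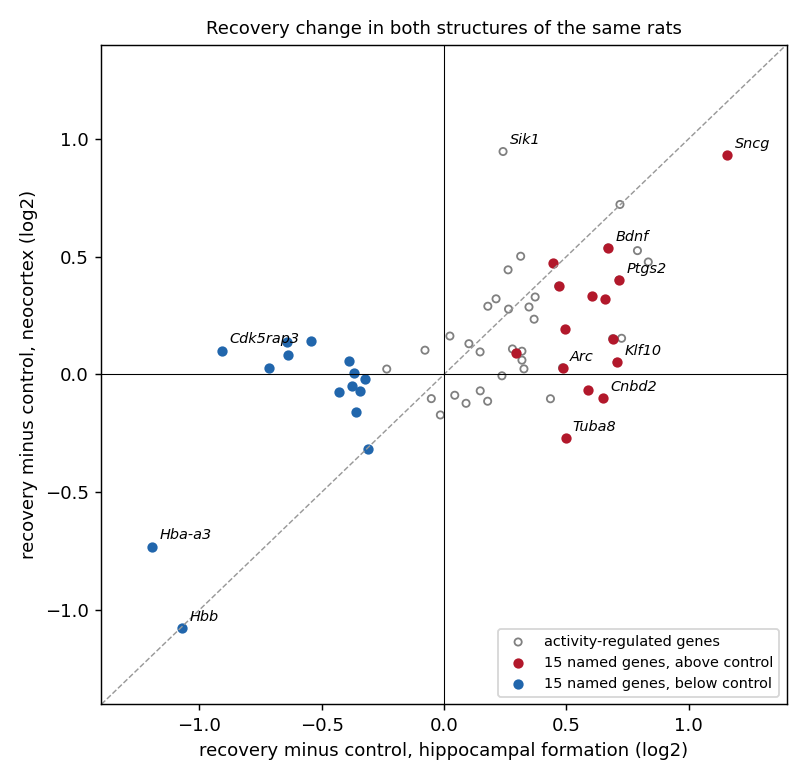
Recovery minus control (log2) in the hippocampal formation (horizontal) and the neocortex (vertical) of the same rats for the 15 named genes above control (red), the 15 below (blue) and the activity-regulated genes (open circles), with the line of equal change dashed. Hbb lies on the line and Sncg and Bdnf just below it, while Klf10 (0.71 and 0.051) and Arc (0.48 and 0.028) lie near 0 on the neocortical axis.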

How the data were processed

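RNA of 12 pools was measured on 18 one-colour Affymetrix rat arrays. The deposited intensities are MAS5 signals made by the authors on a linear scale, per the submitters' processing notes, with a version not given in the sources used here. Signals were raised to a floor of 1 and set to log2, with no further normalization, and the technical arrays of set 1 were averaged. Control probe sets (57) and the lowest 40% by mean log2 signal (under a signal of 19.7) were left out, leaving 18625 of 31099. Of all probe sets, 20832 had 1 gene symbol in the platform annotation, 436 several and 9831 none.

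limma 3.58.1 (R 4.3.3, trended variance) fitted all 12 pools with 6 group means and the set of rats as a block within each structure, and Benjamini-Hochberg adjustment covered all kept probe sets at 0.05. The code was tested on simulated data. The sets pair the pools because each set's control, deprived and recovery pools carry the same number in the labels, and their set 2 minus set 1 differences correlated across probe sets (0.607 to 0.682). Dropping the block left 0 calls and took the probe sets with an unadjusted p under 0.05 from 1363 to 282. Array number limits the precision.

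The genes named were, on each side, the 15 with the smallest p among genes on one side of control in both sets with pools apart, and up to 4 per list by p, over 47 lists. Each gene was taken at its probe set of highest mean. The comparison, the gene lists and these rules were chosen with earlier results of these data known. Tables and figures used Python 3.11.15, pandas 2.3.3, numpy 2.4.6 and matplotlib 3.10.9. Alternatives covered the block, the pools fitted, the log transform, quantile normalization, the filter, each technical array and leaving out each pool.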

Additional observations from a re-analysis of the deposited data

How the results depend on the processing

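With limma and the set of rats as a replicate block, 0 probe sets were called in each direction, and without the replicate block 0 were called in this and in both other comparisons (smallest adjusted p 1 in each). Hippocampal pools alone, log2 of the signal plus 16, quantile normalization, no filter, leaving out the lowest 60% and the second technical array also gave 0. The 4 compared pools alone gave 2 higher and 5 lower, and the first technical array of set 1 gave 0 higher and 2 lower, Rprm (log2 change -1.09, adjusted p = 0.0216) and a probe set with several globin symbols. Leaving out 1 pool gave 0 to 14 higher and 0 to 18 lower. The highest counts came without the control pool of set 2 (14 higher) and without the recovery pool of set 2 (18 lower), and the cause was not tested. In such fits the lone pool of a group is assumed to vary like the other groups. Unadjusted p under 0.05 ran from 282 without the block to 2100 of 31042 with no filter. The 30 leading genes kept their sign under each alternative that gave a value. That was 13 alternatives for 27 of them and 12 for 3 that fall out with the lowest 60%. They were chosen for the same sign in both sets with pools apart, so the kept sign follows largely from the choice. A single technical array moved the change by over 1.5 times for 12 of the 72 named genes (4 of the 30), and leaving out 1 pool did for 31 (7 of the 30). Of 45 list medians 16 kept their sign under all 14. The activity medians ran from 0.171 to 0.445 for transcription genes and from 0.238 to 0.36 for effectors. Dim probe sets, under a signal of 32, have little precision.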
